A study of Homo sapiens with 4 samples.

Results

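Chromosome 18 was described here by its lamin B1 enrichment in 2 human prostate cancer cell lines, LNCaP and VCaP. Its members were all entries of chromosome 18 that are 40 kb wide and have a value in both deposited tables. There are 1869 such bins, of 71436 on the 24 chromosomes. Both are established lines, LNCaP from a prostate adenocarcinoma and VCaP from prostate cancer that had spread to bone. Both were untreated cultures, grown in different media and fixed with formaldehyde. Each line had 1 library of chromatin precipitated with a lamin B1 antibody and 1 input library made without antibody. Each of the 4 groups therefore holds 1 library, and no difference below could be tested against replicates.

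Lamin B1 is a filament protein of the nuclear lamina, the mesh that lines the inner nuclear membrane. Chromatin that touches the lamina forms long domains that are usually poor in active genes and rich in AT. Gene-poor chromosomes tend to lie near the nuclear edge, and chromosome 18 is the classic example, with the gene-rich chromosome 19 as its usual counterpart in the nuclear interior. Its long arm carries SMAD4, which encodes a transducer of TGF-beta signals, BCL2, which encodes an inhibitor of apoptosis, and DCC, which encodes a netrin receptor.

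Chromosome 18 was both short and poor in genes by the tables used here. The last bin of chromosome 18 ended at 78.0 Mb, which ranks 19 of the 24 chromosomes from the longest. RefSeq, in its GRCh38.p14 gene table, assigns 270 protein-coding genes to chromosome 18. Only chromosomes 21 and Y have fewer, with 239 and 63, and chromosome 19 has 1451. That table was used for counts per chromosome alone, since its coordinates are of another build than the deposited files. All positions below are in hg19.

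Each value is the log2 enrichment of the lamin B1 library over the input of the same line as deposited. How the authors scaled the libraries, and so what a value of 0 stands for, is not given in the sources used here. The deposited values are running means of 3 entries, so neighbouring bins are not independent. Noise was estimated from all pairs of bins 3 apart, which share no averaged entry, and it includes real change over 120 kb. The noise SD of 1 bin was 0.15 in LNCaP, 0.22 in VCaP and 0.27 for the difference between them. A bin's difference was called beyond noise when it exceeded 0.53, the 95% range of that noise. The associated state is the one of the authors' 2 states with the higher mean enrichment.

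The medians of chromosome 18 were slightly above the deposited 0 in both lines and close to each other. With each line centred on its median over all common bins, the VCaP median was -0.0079. In LNCaP the lowest bin was -0.87, the median 0.14 and the highest 0.94, with an interquartile range of -0.03 to 0.40. In VCaP the lowest bin was -1.18, the median 0.18 and the highest 1.49, with an interquartile range of -0.11 to 0.43. The 2 distributions overlapped over most of their range, and that of VCaP was wider. Per bin, the median VCaP minus LNCaP difference was 0.01, against 0.10 over all common bins. Enrichment was over 0 in 1315 of the 1869 bins in LNCaP (70.4%, against 56.9% of all common bins). In VCaP it was over 0 in 1256 bins (67.2%, against 66.9%).

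The associated state covered 863 of the 1869 bins in LNCaP, or 46.2%, where the share over all common bins was 37.9%. In VCaP it covered 800 bins, or 42.8%, where the share over all common bins was 44.4%. Chromosome 18 was thus above the background of LNCaP and close to that of VCaP. With 1 library per line these shares have no replicate error.

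**Figure D1:**
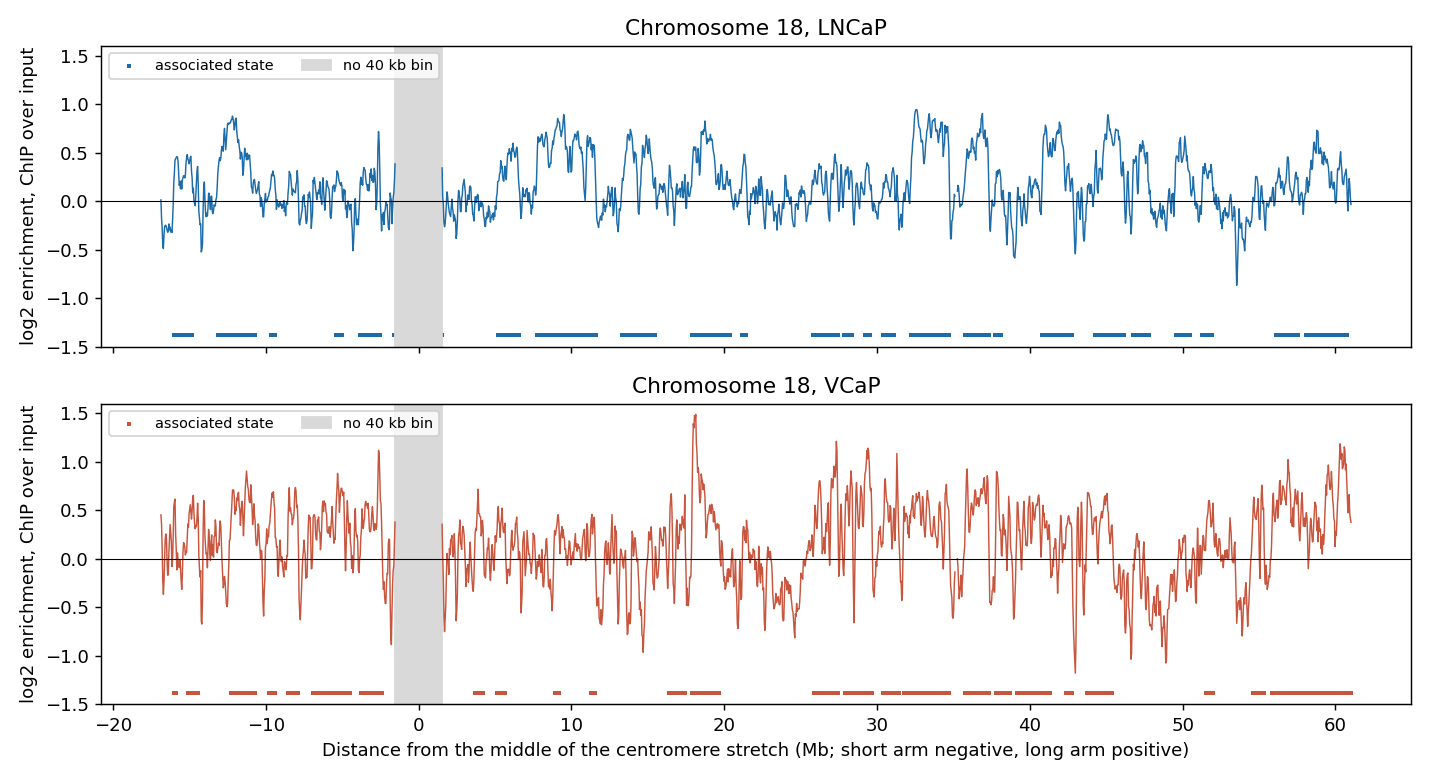
Log2 enrichment of lamin B1 ChIP over input (y axis) in each 40 kb bin of chromosome 18, plotted by distance in Mb from the middle of the centromere stretch (x axis, short arm negative), for LNCaP (top) and VCaP (bottom). Squares near the bottom of each panel mark bins in the associated state, and the grey band is the stretch without a 40 kb bin. The bins run from -0.87 to 0.94 in LNCaP and from -1.18 to 1.49 in VCaP, and the distal long arm is in the associated state in both.

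As deposited, the arms differed in which line was higher, though the short arm difference fell to 0.02 with each line centred. The arms are divided by the longest stretch without a 40 kb bin, 3.04 Mb from 15440001 to 18480000, which left 384 bins on the short arm and 1485 on the long arm. On the short arm the median was 0.10 in LNCaP (interquartile range -0.05 to 0.27) and 0.27 in VCaP (0.03 to 0.47), with a median difference per bin of 0.15. For the long arm both medians were 0.15, with interquartile ranges of -0.03 to 0.43 in LNCaP and -0.15 to 0.42 in VCaP. There the median difference per bin was -0.06. The median difference of the short arm was thus 0.21 above that of the long arm. Between the arm medians, short minus long, the difference was -0.05 in LNCaP and 0.12 in VCaP.

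The states of the arms differed in the same directions. On the short arm 145 bins (37.8%) were associated in LNCaP and 185 (48.2%) in VCaP. Along the long arm the associated bins numbered 718 (48.4%) in LNCaP and 615 (41.4%) in VCaP. The short arm was therefore the arm with the larger associated share in VCaP and the smaller in LNCaP.

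Bins were next sorted by the line in which they were associated. Both lines were associated in 524 bins, 28.0% of chromosome 18 against 20.6% of all common bins. Neither line was associated in 730 bins, 39.1% against 38.4%. LNCaP alone was associated in 339 bins, 18.1% against 17.2%, and VCaP alone in 276, 14.8% against 23.8%. The shared class was the one furthest above its background and the VCaP-only class the one furthest below. These backgrounds pool chromosomes that differed widely. The associated share was 19.8% in LNCaP and 90.3% in VCaP on chromosome 22, and 41.4% and 25.4% on chromosome 4. The classes were not compared chromosome by chromosome, so a low VCaP-only share is not shown to be particular to chromosome 18. The 524 shared bins were 60.7% of the LNCaP bins and 65.5% of the VCaP bins in the associated state, against 54.5% and 46.5% over all common bins.

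**Figure D2:**
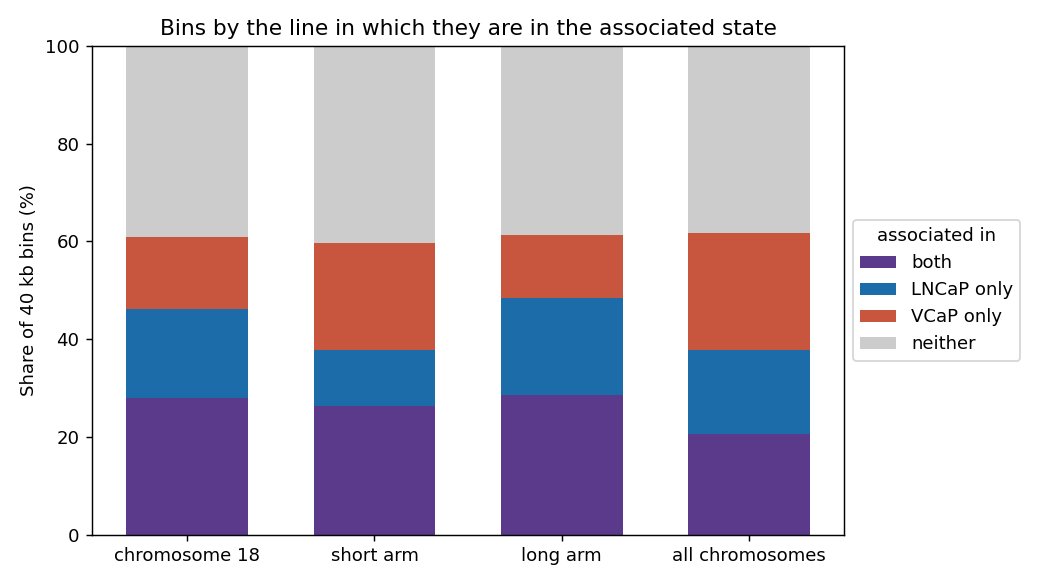
Share of 40 kb bins (y axis, percent) that are in the associated state in both lines, in LNCaP only, in VCaP only or in neither, for chromosome 18, its arms and all chromosomes. Bins associated in both make up 28.0% of chromosome 18 and 20.6% of all bins, and VCaP-only bins 14.8% and 23.8%.

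The arms held different 1-line classes. On the short arm 44 bins (11.5%) were associated in LNCaP only and 84 (21.9%) in VCaP only. The long arm had 295 (19.9%) in LNCaP only and 192 (12.9%) in VCaP only. Shared bins made up 26.3% of the short arm and 28.5% of the long arm, a smaller contrast than that of the 1-line classes.

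The levels behind the classes showed how far the lines stood apart. The mean of shared bins was 0.42 for LNCaP and 0.54 for VCaP on the log2 scale. Bins associated in neither had means of -0.07 and -0.13. In LNCaP-only bins the means were 0.46 (LNCaP) and -0.03 (VCaP) and differed by -0.49, close to the -0.44 of all such bins on the 24 chromosomes. In VCaP-only bins the means were 0.06 and 0.42 and differed by 0.36, where all such bins had -0.12, 0.56 and 0.67. The VCaP-only bins of chromosome 18 thus differed less between the lines than those pooled over all chromosomes, with the LNCaP mean above the deposited 0. A difference beyond noise was present in 41.3% of LNCaP-only bins and in 15.6% of VCaP-only bins, against 35.8% and 62.3% of those classes over all chromosomes. Counting all bins of chromosome 18, VCaP was above LNCaP beyond noise in 109 (5.83%, against 19.7% of all common bins), and LNCaP above VCaP in 193 (10.3%, against 8.30%).

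Along the chromosome the order of the lines changed several times. In the 16 windows of 5 Mb counted from position 1, VCaP was higher in 6 and LNCaP in 10. The difference exceeded 2 noise SDs of a window mean in 5 of the former and 6 of the latter. Which line is higher in a window here and below, and whether a difference is within noise, rests on the deposited zero points. The medians over all common bins differed by 0.13, VCaP minus LNCaP, against a noise SD of 0.04 in most windows. The windows were not recounted with the lines centred. Both means were above 0 in 11 windows and both below 0 in 1, that around the centromere from 15000001 to 20000000, with -0.04 in LNCaP and -0.05 in VCaP over its 49 bins.

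On the short arm, up to 15000000, the LNCaP means of successive windows were lower toward the centromere and the VCaP means higher. The first 5 Mb averaged 0.19 in LNCaP against 0.14 in VCaP, and differed by -0.04 (noise SD 0.04). From 5000001 to 10000000 the means were 0.13 and 0.27. From 10000001 to 15000000 they were 0.07 and 0.33, and the associated state held 34.4% of bins in LNCaP and 76.0% in VCaP. The last difference, 0.27 (noise SD 0.04), was the largest on the arm among these windows. The trend is one of these windows alone. The 2 Mb of the arm beside the centromere, mostly within the last of them, averaged 0.09 in LNCaP and 0.20 in VCaP. For VCaP this was below the 0.33 of that whole window.

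On the long arm LNCaP was higher from 25000001 to 40000000. In the window before it, from 20000001 to 25000000, the means were 0.13 and 0.09 (LNCaP first) and differed by -0.05, near the noise SD of 0.04. From 25000001 to 30000000 they were 0.39 and 0.03, the largest difference of the 16 windows in either direction, at -0.35 (noise SD 0.04). There 71.2% of bins were associated in LNCaP and 12.8% in VCaP. The window from 30000001 to 35000000 had 0.24 in LNCaP and -0.02 in VCaP, and that from 35000001 to 40000000 had 0.23 and 0.14. From 40000001 to 45000000 both were low, at 0.07 and 0.03, and differed by less than the noise SD.

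The middle of the long arm was enriched in both lines. From 45000001 to 50000000 the mean was 0.19 in LNCaP and 0.42 in VCaP. From 50000001 to 55000000 it was 0.44 in LNCaP, the highest LNCaP value of the 16 windows, and 0.30 in VCaP, with 74.6% and 73.0% of bins associated. From 55000001 to 60000000 the deposited means of the lines were within noise of each other, at 0.16 and 0.18.

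Beyond it the lines parted again, and both were high at the end. From 60000001 to 65000000 the mean was 0.28 in LNCaP and -0.00035 in VCaP. From 65000001 to 70000000 it was 0.08 in LNCaP and -0.10 in VCaP, the lowest VCaP value of the 16. From 70000001 to 75000000 the order was turned, with -0.01 in LNCaP and 0.23 in VCaP. The last 75 bins, from 75000001 to 78000000, had means of 0.31 and 0.54, and the associated state held 89.3% of them in LNCaP and 94.7% in VCaP.

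**Figure D3:**
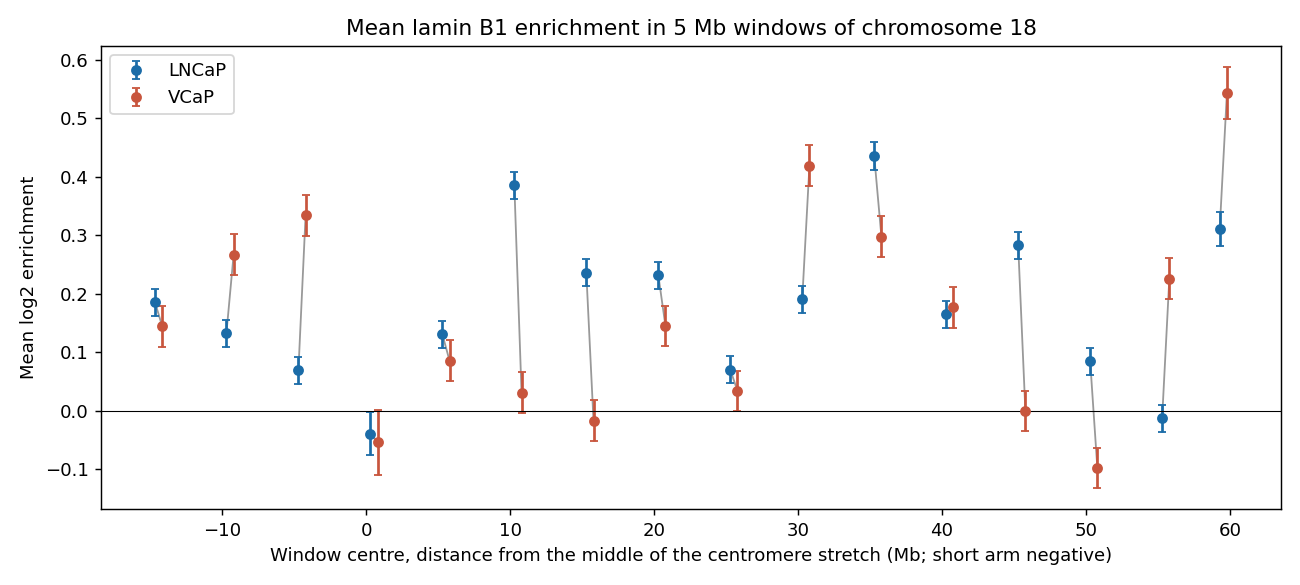
Mean log2 enrichment (y axis) of 16 windows of 5 Mb along chromosome 18 in LNCaP and VCaP, plotted by distance in Mb from the middle of the centromere stretch (x axis, short arm negative). Bars are the noise SD of each mean, not a replicate error, and grey lines join the 2 lines' values of a window. LNCaP stands highest above VCaP in the window at 25000001 to 30000000 (0.39 and 0.03), and both lines are high at the end of the long arm (0.31 and 0.54).

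Zones at the ends and beside the centromere were compared over 5 Mb each. The end of the long arm was the most enriched zone in both lines, and its 123 bins averaged 0.25 in LNCaP and 0.56 in VCaP. It was associated in 103 of these bins in LNCaP and in 119 in VCaP. The rest of the long arm, outside its end and its first 5 Mb, had means of 0.21 in LNCaP and 0.10 in VCaP. The end of the short arm had 0.19 and 0.14 over 123 bins, with 61 and 31 associated. Beside the centromere the short arm had 0.06 in LNCaP and 0.29 in VCaP, and the long arm 0.07 and 0.08. The arm ends were thus unlike each other, and only that of the long arm was associated in most bins of both lines. Taking 2 Mb in place of 5 Mb turned both long arm values beside the centromere to -0.030. At the end of the short arm it gave 0.06 in LNCaP and 0.11 in VCaP, the reverse order. Over 5 Mb the difference there was -0.04 with a noise SD of 0.04, so the lines had no clear order at that end.

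Domains were taken as runs of adjacent associated bins. On chromosome 18 the 28 domains of LNCaP covered 34.5 Mb. Their median length was 1000 kb, with an interquartile range from 460 to 1680 kb. The 29 of VCaP covered 32.0 Mb, at a median of 760 kb and an interquartile range from 520 to 1640 kb. Over all common bins the medians were 720 kb in LNCaP and 560 kb in VCaP. A length of 1 Mb or more was reached by 16 of the 28 domains of LNCaP and 13 of the 29 of VCaP. Over all common bins it was reached by 350 of 965 in LNCaP and 387 of 1267 in VCaP. The short arm held 6 of the LNCaP and 7 of the VCaP domains. With a running median of 5 bins over 0 as the associated state, there were 55 LNCaP and 61 VCaP domains.

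The longest LNCaP domain was one in which VCaP was mostly not associated. It spanned 3880 kb from 24680001 to 28560000, and its mean was 0.57 in LNCaP (bins from 0.0047 to 0.89) and 0.09 in VCaP (-0.54 to 0.46). VCaP was associated in 16 of its 97 bins. The second ran from 75040001 to 77720000 at the end of the long arm, with means of 0.34 and 0.55, and 63 of its 67 bins were also associated in VCaP. The third, from 49160001 to 51720000, had means of 0.70 and 0.44, and all 64 bins were associated in both lines.

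The longest VCaP domains included the counterparts of the latter 2. The first spanned 3040 kb from 48680001 to 51720000, with means of 0.60 and 0.43 (LNCaP first), and 64 of 76 bins were also associated in LNCaP. The second ran from 75280001 to the last bin at 78000000, with 0.33 and 0.58. The third lay on the short arm from 10040001 to 12480000, with means of 0.09 and 0.42, and 10 of its 61 bins were also associated in LNCaP.

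Runs associated in both lines numbered 25. The longest, of 64 bins, was the whole LNCaP domain from 49160001 to 51720000. The next, from 75280001 to 77720000, had means of 0.36 in LNCaP and 0.58 in VCaP over 61 bins. The third, from 34840001 to 36640000, had 0.51 and 0.68 over 45 bins and held the highest VCaP bin of the chromosome, at 1.49. These 3 runs lay on the long arm, as did the 3 longest runs associated in neither line. Of those, the first spanned 4280 kb from 38440001 to 42720000, with means of -0.02 in LNCaP and -0.22 in VCaP. The second, from 69000001 to 71520000, had -0.20 and -0.12, and the third, from 18520001 to 20640000 near the centromere, had -0.05 in both.

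Most domains of a line were at least in part associated in the other. Of the 28 LNCaP domains, VCaP was associated over 50% or more of the bins in 17, over every bin in 7 and over none in 7. Of the 29 VCaP domains, LNCaP was associated over 50% or more of the bins in 18, over every bin in 8 and over none in 6. A minority of the domain borders had a match in the other line. LNCaP had 54 borders, and 17 of them (31.5%) lay within 2 bins of a VCaP border in the same direction, as did 17 of the 57 VCaP borders (29.8%). The median step across a border, between the means of 5 bins on either side, was 0.31 in LNCaP and 0.53 in VCaP. These domain and border counts have no counterpart over all chromosomes here. Whether they are high or low for these lines is therefore not known.

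Runs of at least 5 bins associated in 1 line only were taken as regions. Their states come from the same libraries as the values. The direction of their differences, and part of the size, therefore follows from this choice and is a description only. There were 14 in LNCaP only, of which 2 were on the short arm, with a median length of 940 kb. Their mean differences ran from -0.77 to -0.17, and 12 exceeded 2 noise SDs. VCaP-only regions numbered 19, of which 4 were on the short arm, with a median length of 520 kb. Their mean differences ran from 0.21 to 0.54, and 16 exceeded 2 noise SDs. The LNCaP-only regions were fewer and longer, with a median difference of -0.51 against 0.37. After quantile normalization of the lines, which takes out the different zero points, 13 LNCaP-only and 6 VCaP-only regions exceeded 2 noise SDs in their own direction.

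Among LNCaP-only regions the difference was largest from 62360001 to 63120000 over 19 bins. The mean of this region was 0.56 in LNCaP (bins from 0.26 to 0.74) and -0.20 in VCaP (-0.42 to 0.20), which differ by -0.77 (noise SD 0.11). The bins of the lines did not overlap there, in a region chosen for its states and its difference. The next was the first part of the longest LNCaP domain, from 24680001 to 25840000, with 0.57 in LNCaP (0.35 to 0.71) and -0.13 in VCaP (-0.54 to 0.21), a difference of -0.69 (noise SD 0.09), again without overlap. The third, from 30280001 to 31280000, had 0.50 in LNCaP (0.21 to 0.74) and -0.16 in VCaP (-0.78 to 0.28), a difference of -0.66 (noise SD 0.09), and the bins of the lines overlapped.

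The VCaP-only regions with the largest differences were short. The first ran from 48120001 to 48400000 over 7 bins, at means of 0.03 in LNCaP (bins from -0.22 to 0.27) and 0.57 in VCaP (0.19 to 1.09), which differ by 0.54 (noise SD 0.18). The second was the last 7 bins of the chromosome, from 77720001 to 78000000, with means of 0.05 and 0.52, which differ by 0.47 (noise SD 0.18), and 5 of its bins lay beside the end of the table's 40 kb bins. The third, from 72800001 to 73040000, had 0.04 and 0.49 over 6 bins, a difference of 0.45 (noise SD 0.19). In all 3 the LNCaP mean lay slightly above the deposited 0 and below the LNCaP median over all common bins, 0.06.

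In windows of 1 Mb, both means were over 0 in 45 of 74 and below 0 in 4. LNCaP alone was over 0 in 12 and VCaP alone in 13. The highest LNCaP window, from 4000001 to 5000000 on the short arm, had 0.72 in LNCaP and 0.11 in VCaP, and all 25 of its bins were associated in LNCaP against 9 in VCaP. The lowest LNCaP window, from 70000001 to 71000000, had -0.27 and -0.23. The highest VCaP window was the last, from 77000001 to 78000000, with 0.22 in LNCaP and 0.78 in VCaP. The lowest VCaP window, from 65000001 to 66000000, had -0.15 in LNCaP and -0.60 in VCaP. Both lowest windows were low in the other line as well, and had no associated bin in either.

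The bins of the lines correlated on chromosome 18. Pearson r was 0.417 and Spearman rho 0.447 over the 1869 bins, against 0.281 and 0.297 over all common bins. These describe bins that share their library and their averaged neighbours, so no p is given. On the short arm r was 0.426 (384 bins) and on the long arm 0.433 (1485 bins), values close to each other. The relation weakened with the size of the window, as r was 0.399 over 372 windows of 200 kb and 0.271 over 74 windows of 1 Mb. It was -0.0426 over 14 of the 16 windows of 5 Mb, and r over all 16 was not computed. The windows with the fewest bins were low in both lines (49 bins, -0.04 and -0.05) or high in both (75 bins, 0.31 and 0.54). Over all chromosomes r fell as well, to 0.256, 0.167 and 0.0778 at the same window sizes. With the mean of each 5 Mb window subtracted, r over the bins of chromosome 18 was 0.476, against 0.410 over all common bins. Within single windows of 5 Mb it ran from -0.0390, in the last, to 0.852, in the window from 70000001 to 75000000, with a median of 0.515. The r over bins was thus higher than that over the 14 windows of 5 Mb used.

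**Figure D4:**
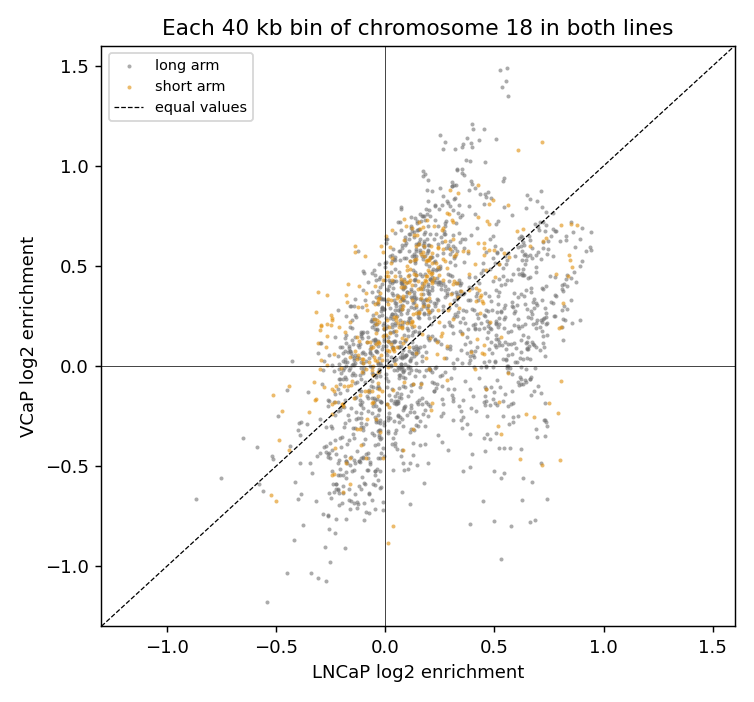
Log2 enrichment of each of the 1869 bins of chromosome 18 in LNCaP (x axis) and VCaP (y axis), coloured by arm, with equal values on the dashed line. Pearson r is 0.426 on the short arm and 0.433 on the long arm, and more of the short arm lies above the dashed line (median difference 0.15 against -0.06).

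Chromosome 18 was then set beside the other chromosomes, as a description of 24 values per line with no test. Its LNCaP median ranked 4 from the highest and its VCaP median 13. Its median difference per bin, 0.01, was the second closest to 0, after that of chromosome 3 at -0.0079. The other short autosomes nearest in the karyotype stood far from 0. The median difference was 0.51 on chromosome 17, 0.66 on chromosome 19 and 0.48 on chromosome 20. Their LNCaP medians were -0.03, 0.03 and -0.05, and their VCaP medians 0.49, 0.71 and 0.44. Chromosome 18 was thus higher than all 3 in LNCaP and lower than all 3 in VCaP, an order that does not depend on the zero point of a line. The other chromosomes among the 5 with the fewest genes did not share its LNCaP level. The LNCaP median was -0.40 on chromosome 21, the lowest of the 24, -0.18 on chromosome Y, -0.12 on chromosome 13 and -0.08 on chromosome 22. Their VCaP medians were 0.18, 0.24, 0.02 and 0.67. Gene counts take no account of chromosome length, and chromosomes were not compared by genes per Mb.

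The associated share differed likewise. It was 46.2% in LNCaP and 42.8% in VCaP on chromosome 18. It was 22.7% and 75.2% on chromosome 17, 34.3% and 95.5% on chromosome 19, and 18.2% and 72.8% on chromosome 20. The gene-rich chromosome 19 thus ranked 1 of 24 in VCaP by both median and share, and 12 in LNCaP by both. This VCaP order is unlike the usual nuclear positions of chromosomes 18 and 19, and position in the nucleus was not measured here. Bins associated in both lines were 46.0% of those associated in at least 1 line of chromosome 18, which ranked 3 of 24, after chromosomes 16 (86.6%) and 10 (49.3%). Its r of 0.417 ranked 5, and r was 0.242 on chromosome 17, 0.270 on chromosome 19 and 0.325 on chromosome 20. The spread of its bins was not unusual, as the width of the interquartile range, 0.43 in LNCaP and 0.54 in VCaP, ranked 11 and 14.

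The rank of the difference depends on the zero point of each line. The median over all common bins was 0.06 in LNCaP and 0.19 in VCaP. With each line centred on it, the LNCaP median of chromosome 18 was 0.08. The median difference was then -0.12, which ranked 13 of 24 by size. The short arm difference was then 0.02 and the long arm difference -0.19. Centring shifts both arms by the same amount, so the contrast between them is fixed by construction.

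**Figure D5:**
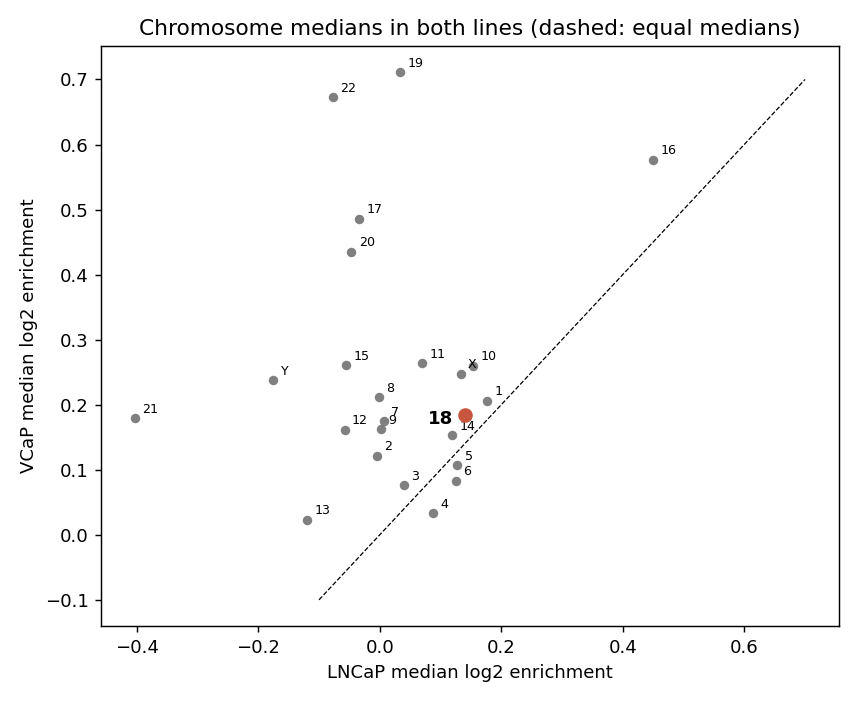
Median log2 enrichment of each of the 24 chromosomes in LNCaP (x axis) and VCaP (y axis), with equal medians on the dashed line and chromosome 18 in red. Chromosome 18 lies near the dashed line (0.14 and 0.18), whereas chromosomes 17, 19 and 20 lie far above it.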

How the data were processed

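Lamin B1 ChIP and input libraries of LNCaP and VCaP were sequenced, 1 of each per line. The authors deposited log2 enrichment of ChIP over input per entry and 2-state labels from a hidden Markov model, per the file names. Per the submitters' processing notes, the build was hg19 and STAR was named as a tool. The scaling of ChIP to input and the read depth are not given in the sources used here, so no counting error is given. The deposited log2 values behave as a trailing mean of 3 entries, which places signal about 40 kb downstream. It was undone as an alternative. All columns were mapped to a line.

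Medians, shares, runs and correlations were computed from the deposited values with numpy 2.4.6, scipy 1.17.1 and pandas 2.3.3 under Python 3.11.15, and plotted with matplotlib 3.10.9. The noise SD is the median absolute difference of bins 3 apart, scaled to an SD per bin. The noise of a difference combines that of the lines, and a mean counts 1 separate value per 3 bins. No tests were run, since each group has 1 library. Named were the 3 longest domains per line, the 3 longest runs in both and in neither line, the 3 regions per direction with the largest difference, the extreme 1 Mb windows of at least 20 bins and every 5 Mb window. Runs, noise and the undone mean were tested on simulated data. The chromosome, the tests and the alternatives were chosen with earlier results of these data known. Genes within regions were not analysed here, as the gene table is of GRCh38.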

Additional observations from a re-analysis of the deposited data

Results flagged for a closer look

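Means of opposite sign in the lines were found in 4 windows of 5 Mb of chromosome 18, in 9 of the 14 LNCaP-only regions and in 4 of the 19 VCaP-only regions. With 1 library per line, none of these differences was tested. The VCaP minus LNCaP difference was -0.25 from 30000001 to 35000000, -0.28 from 60000001 to 65000000, -0.18 from 65000001 to 70000000 and 0.24 from 70000001 to 75000000. In the first 2 of these the VCaP mean (-0.02 and -0.00035), and in the last the LNCaP mean (-0.01), lay within its noise SD of 0. In the LNCaP-only regions with the largest differences, it was -0.77 from 62360001 to 63120000, -0.69 from 24680001 to 25840000 and -0.66 from 30280001 to 31280000. LNCaP was above 0 and VCaP below 0 in these 3. The signs rest on the deposited zero point, whose scaling is not given in the sources used here.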

How the results depend on the processing

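For 31 results, 93 alternative values were computed, of which 73 stayed within a tolerance, 14 moved beyond it and 6 changed sign. The tolerance was the noise SD of 1 bin for a level, 0.1 for r and 1.5 times for a count or share. For a level it is wide, since means and medians over many bins are less noisy than 1 bin. The sign of the whole-chromosome difference, 0.01 as deposited, depends on the scaling: it was -0.12 with each line centred, -0.29 in SDs with each line centred and scaled, and -0.12 with quantile normalization. Centring also gave a VCaP median of -0.0079 and put the size of the difference at rank 13. The long arm difference was -0.43 in SDs when centred and scaled. Within the tolerance, the short arm difference, 0.15 as deposited, was 0.02 with each line centred and 0.03 with quantile normalization, and the long arm difference, -0.06, was -0.19 and -0.17. The arms kept their signs in all 5 alternatives.

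Calling bins over 0 associated gave shares of 70.4% in LNCaP and 67.2% in VCaP, with 1034 bins in both and 332 in neither. With a running median of 5 bins over 0 the shares were 71.5% and 68.5%, with 55 domains in LNCaP (median 560 kb) and 61 in VCaP. With a threshold of 0.5 they were 18.5% and 20.1%, so the line with the larger share changed. After quantile normalization, 6 VCaP-only regions exceeded 2 noise SDs against 16 before it. Beside the centromere, 2 Mb of the long arm had means of -0.030 in both lines, and the first 2 Mb of the short arm had 0.06 in LNCaP and 0.11 in VCaP. The cause of these shifts was not tested. No paired analysis was possible because there is a single library per group. The depth is not known, and noise between bins is the only error given.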

Other observations

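Entries of other widths were left out of the bins of chromosome 18, 3 in each line. The 3.04 Mb entry over the centromere had a deposited value of 0.42 and the associated label in LNCaP, and 0.32 and the other label in VCaP. With the mean of 3 entries undone, its own value was 0.01 in LNCaP and -0.02 in VCaP. The 120 kb entry from 52080001 to 52200000 had 0.04 and -0.07, and neither line carried the associated label there. The last entry, from 78000001 to 78077248, had -0.12 in LNCaP and 0.46 in VCaP and was associated in VCaP only.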
